A study of Mus musculus with 17 samples.

Results

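Matrix metalloproteinases (MMPs) and their tissue inhibitors (TIMPs) were described in F4/80hi macrophages sorted from the kidneys of lupus-prone NZB/W mice. The 10 genes were 7 proteases, Mmp2, Mmp8, Mmp9, Mmp12, Mmp13, Mmp14 and Mmp19, and 3 inhibitors, Timp1, Timp2 and Timp3, out of 15780 genes with 1 symbol on the array. They were found by symbol, and each had 1 probe set. All 10 were measured, and no filter on level was used.

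MMPs are zinc-dependent proteases that cut collagens, elastin and other matrix proteins, and they also cut cytokines, receptors and other proteases. Most are secreted as inactive proenzymes and become active when the propeptide is removed, whereas MMP14 sits in the plasma membrane. TIMPs bind the active site and block it, and TIMP2 also takes part in the activation of pro-MMP2 at the cell surface by MMP14. In kidneys, macrophages are 1 of several sources of these proteins, next to mesangial cells, fibroblasts and tubule cells.

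Samples were total RNA from F4/80hi cells, sorted by flow cytometry and hybridised 1 per Affymetrix array. Remission arrays (n = 4) came from mice taken 3 to 4 weeks after they entered complete remission, following 1 cyclophosphamide dose together with 6 CTLA4Ig doses and anti-CD154. Nephritic arrays (n = 7) came from mice that had been proteinuric for 2 to 6 weeks and had not reached terminal renal failure, and prenephritic arrays (n = 6) came from mice aged 8 to 16 weeks. All 17 samples were NZB/W kidney cells. The prenephritic mice are titled young, the ages of the other mice are not in the labels, and every remission mouse had been treated, so age cannot be told apart from disease, or drug treatment from remission. Whether each array stands for its own animal is not in the labels. The p-values therefore reflect the spread among these arrays alone, part of which may be technical.

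Values are log2 expression after RMA, so a difference of 1 is a doubling, and each group is given as mean ± SD. Array medians lay between 7.49 and 7.68, and correlations between arrays over all genes lay between 0.942 and 0.994. The marker of the sort was high throughout, with Adgre1, which encodes F4/80, at 13.23 ± 0.14 in remission arrays, 13.24 ± 0.09 in nephritic arrays and 13.08 ± 0.18 in prenephritic arrays. The RNA end bias, as the 3′ minus 5′ difference of the Gapdh control probe sets, averaged 1.02 ± 0.11 in remission, 1.01 ± 0.07 in nephritic and 1.11 ± 0.16 in prenephritic arrays. Differences were tested with limma across all genes, with Benjamini-Hochberg adjustment over the 15780 genes and a threshold of 0.05. A gene is called dim where its mean was under 4.99, which is the lower quartile over the whole table, and a difference against a dim group is read as a lower bound because RMA compresses low values. In sorted bulk samples, fewer cells of a type and less RNA per cell cannot be told apart.

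**Figure D1:**
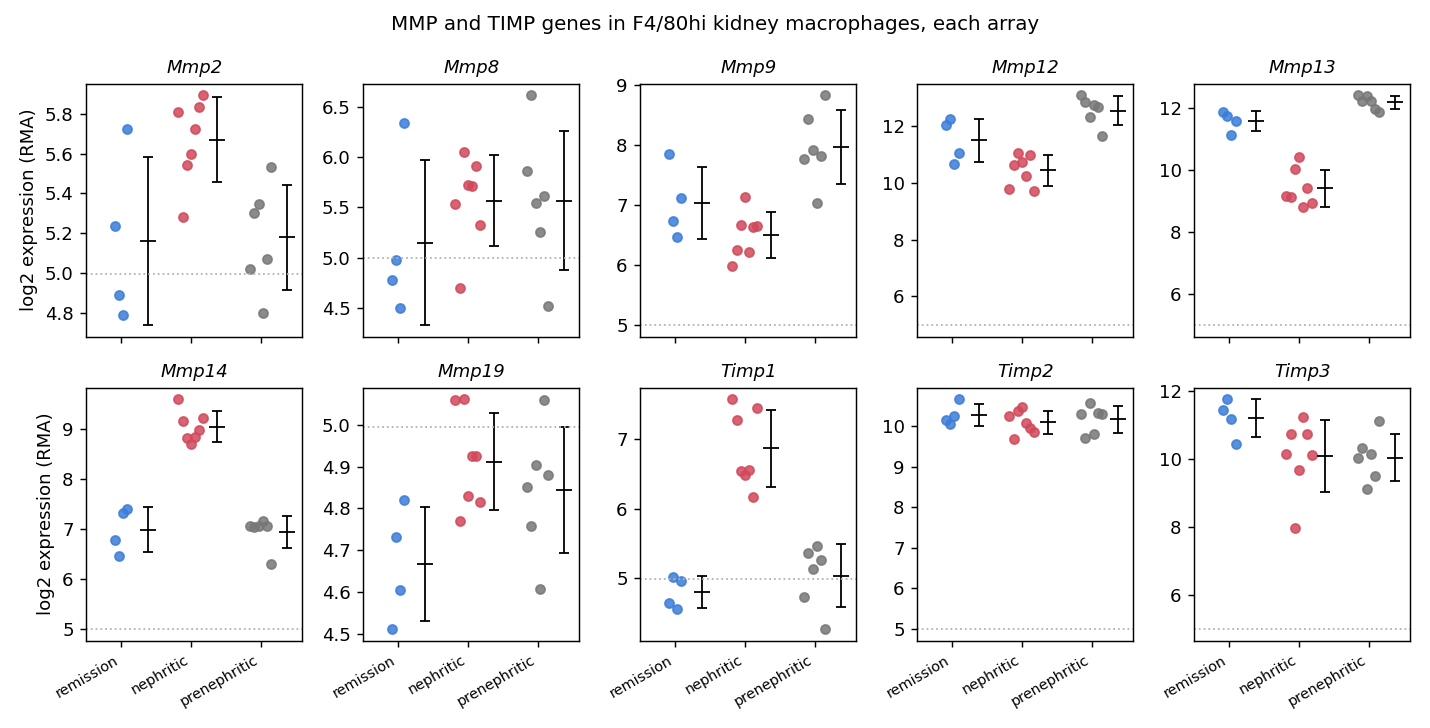
Log2 expression (RMA) of the 10 MMP and TIMP genes in each array, with remission arrays in blue (n = 4), nephritic arrays in red (n = 7) and prenephritic arrays in grey (n = 6). Black marks show the mean and SD of each group, the vertical scales differ between panels and the dotted line marks 4.99, the lower quartile over the whole table. Mmp13 and Mmp12 are lower, and Mmp14 and Timp1 higher, in every nephritic array than in every prenephritic array.

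The comparison of nephritic with prenephritic arrays asked how kidney macrophages change once nephritis is established. Of the 10 genes, 6 passed the test, with 3 higher (Mmp14, Timp1 and Mmp2) and 3 lower (Mmp13, Mmp12 and Mmp9). Across all genes 12.1% passed, with 6.74% higher and 5.32% lower. The members' median size of change was 0.98 on the log2 scale, against 0.12 over all genes, while their median signed difference was 0.03 because the directions balanced. The groups did not overlap for 4 of the 10 (2 higher and 2 lower), against 4.68% of all genes (3.07% higher and 1.61% lower). Earlier results of these data were known when the genes were chosen, so these shares are a description.

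Mmp13 encodes collagenase 3, which cuts fibrillar collagens. It ranged from 8.82 to 10.42 with a median of 9.15 in nephritic arrays, and from 11.88 to 12.43 with a median of 12.24 in prenephritic arrays. Every nephritic array lay below every prenephritic array, and the mean was 6.84-fold lower (log2 difference −2.77 ± 0.23 SE, limma, adjusted p = 3.2e-06). Only 2 of the 15780 genes had a larger decrease.

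Mmp12 encodes macrophage elastase, a protease made mainly by macrophages. It ranged from 9.69 to 11.03 with a median of 10.62 in nephritic arrays, and from 11.63 to 13.07 with a median of 12.69 in prenephritic arrays. The groups did not overlap, and the mean was 4.26-fold lower in nephritis (−2.09 ± 0.30, adjusted p = 0.00028).

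Mmp9 encodes gelatinase B, which cuts denatured collagen and type IV collagen of basement membranes. It ranged from 5.99 to 7.13 with a median of 6.63 in nephritic arrays, and from 7.04 to 8.84 with a median of 7.87 in prenephritic arrays. The ranges met at their edges, where nephritic replicate 4 (7.13) lay above prenephritic replicate 4 (7.04), and the mean was 2.77-fold lower in nephritis (−1.47 ± 0.27, adjusted p = 0.0019).

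Mmp14 encodes MT1-MMP, the membrane-bound collagenase that activates pro-MMP2. It ranged from 8.70 to 9.59 with a median of 8.97 in nephritic arrays, and from 6.29 to 7.16 with a median of 7.05 in prenephritic arrays. The groups did not overlap, and the mean was 4.27-fold higher in nephritis (2.10 ± 0.18, adjusted p = 4.3e-06).

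Timp1 encodes an inhibitor that acts on most soluble MMPs, binds pro-MMP9 and is a poor inhibitor of MMP14. It ranged from 6.16 to 7.57 with a median of 6.56 in nephritic arrays, and from 4.28 to 5.47 with a median of 5.19 in prenephritic arrays. The groups did not overlap, and the mean was 3.53-fold higher in nephritis (1.82 ± 0.24, adjusted p = 0.00014). The 7 nephritic arrays themselves fell apart, with replicates 1, 2 and 7 between 7.27 and 7.57 and the other 4 between 6.16 and 6.56.

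Mmp2 encodes gelatinase A, the proenzyme that MMP14 and TIMP2 activate together. It averaged 5.67 ± 0.21 in nephritic arrays (n = 7) and 5.18 ± 0.27 in prenephritic arrays (n = 6), near the dim end of the scale, and the groups overlapped. The difference of 0.49 ± 0.15 passed by a small margin (adjusted p = 0.044). The call was lost in 11 of the 17 fits that left out 1 array, namely prenephritic replicates 1 to 5, nephritic replicates 1, 4, 5, 6 and 7 and remission replicate 1, with adjusted p from 0.053 to 0.095.

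The other 4 genes did not pass. Timp2, an inhibitor made by many cell types, averaged 10.09 ± 0.28 in nephritic arrays and 10.16 ± 0.34 in prenephritic arrays (−0.07, with a 95% interval from −0.41 to 0.26, adjusted p = 0.84). Mmp8, the collagenase of neutrophil granules, averaged 5.57 ± 0.45 in nephritic and 5.57 ± 0.69 in prenephritic arrays, but its interval ran from −0.69 to 0.69 because arrays within each group differed widely. Timp3, an inhibitor that stays bound to the matrix, averaged 10.08 ± 1.06 in nephritic and 10.03 ± 0.69 in prenephritic arrays, with an interval from −0.87 to 0.98. Mmp19 was dim in all 3 groups and differed by 0.07 ± 0.08 (adjusted p = 0.65).

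**Figure D2:**
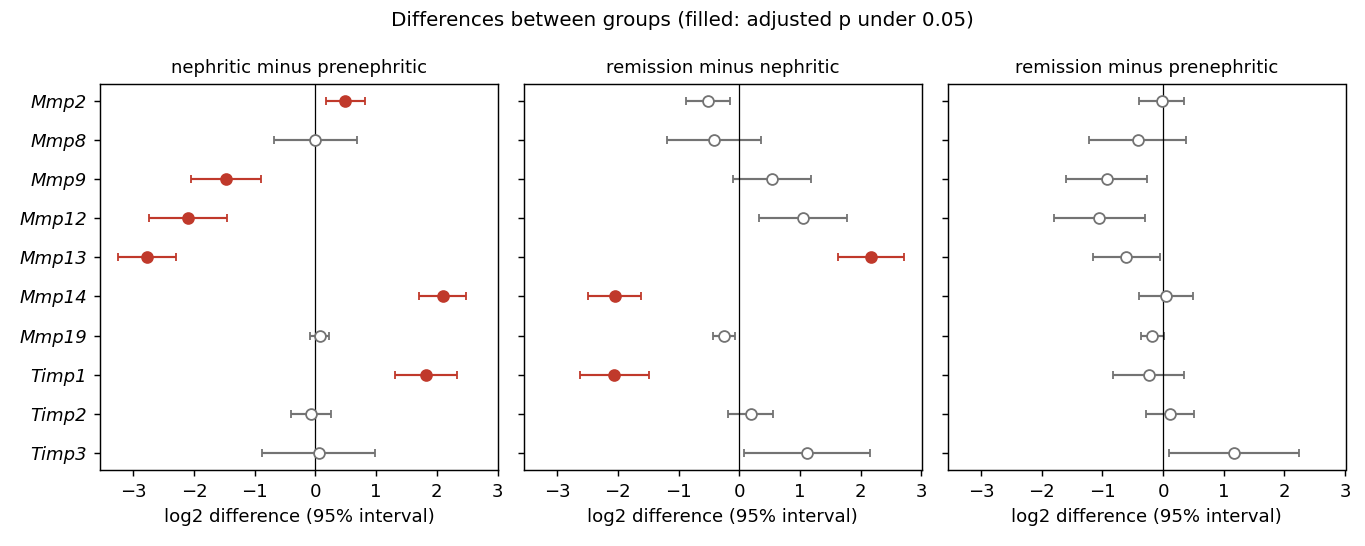
Log2 differences of the 10 genes with 95% intervals from the limma fit, in 3 panels, nephritic minus prenephritic, then remission minus nephritic, then remission minus prenephritic. Filled red points passed the adjusted test, which was the case for 6, 3 and 0 of the 10 genes, and open grey points did not.

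Remission arrays were compared with nephritic arrays to see which of these levels differ after treatment. Mmp14, Timp1 and Mmp13 passed the test, each against its direction in nephritis. The 3 calls among 10 genes (1 higher and 2 lower) compare with 13.3% of all genes, of which 3.27% were higher and 10% lower. For these same 3 genes the groups did not overlap, against 8.65% of all genes (1.70% higher and 6.95% lower). This comparison and the first share the nephritic arrays, so the opposite signs are not independent of each other.

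Mmp13 was at 11.87, 11.76, 11.14 and 11.58 in the 4 remission arrays, each above the highest nephritic array (10.42). The mean was 4.50-fold higher in remission (2.17 ± 0.25, adjusted p = 9.9e-05), and only 2 of the 15780 genes had a larger increase. Mmp14 was at 6.77, 6.46, 7.32 and 7.39 in remission arrays, each below the lowest nephritic array (8.70), and was 4.15-fold lower (−2.05 ± 0.20, adjusted p = 2.1e-05). Timp1 was at 4.65, 5.03, 4.57 and 4.96 in remission arrays, each below the lowest nephritic array (6.16). It was 4.16-fold lower (−2.06 ± 0.27, adjusted p = 0.00021), a lower bound because the remission mean was dim.

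Mmp12 was at 12.01, 12.25, 10.65 and 11.02 in remission arrays, against a range from 9.69 to 11.03 in nephritic arrays. Remission replicates 1 and 2 lay above all nephritic arrays and replicates 3 and 4 lay within their range. The difference of 1.04 ± 0.34 missed the threshold (adjusted p = 0.053) and passed it when any 1 of prenephritic replicate 6, nephritic replicates 3 and 6 and remission replicates 3 and 4 was left out (adjusted p from 0.026 to 0.046). With no array left out, it also passed with array weights (adjusted p = 0.030) and with dim genes left out of the fit (adjusted p = 0.043). Mmp9 was at 7.85, 6.73, 6.47 and 7.12 in remission arrays, with a difference from nephritic arrays of 0.54 ± 0.31 (adjusted p = 0.26). Without remission replicate 1 that difference was 0.27.

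Mmp2 averaged 5.16 ± 0.42 in remission arrays (n = 4) and stood 0.51 ± 0.17 below nephritic arrays (adjusted p = 0.057). It passed without prenephritic replicate 6 (adjusted p = 0.0498), nephritic replicate 2 (0.033) or remission replicate 4 (0.0077). With no array left out, it also passed with array weights (adjusted p = 0.011) and with dim genes left out of the fit (adjusted p = 0.048). Mmp19 stood 0.25 ± 0.09 below nephritic arrays (adjusted p = 0.071) and passed without remission replicate 4 (adjusted p = 0.039) or with array weights (adjusted p = 0.021). Mmp8 (−0.42 ± 0.37, adjusted p = 0.50), Timp2 (0.19 ± 0.18, adjusted p = 0.54) and Timp3 (1.12 ± 0.49, adjusted p = 0.14) did not pass. Leaving out 1 array moved Mmp8 between −0.82 (without remission replicate 4) and −0.20 (without remission replicate 3), and Timp2 between 0.058 (without remission replicate 4) and 0.27 (without remission replicate 2).

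Remission arrays were then compared with prenephritic arrays, to see what differed from the state before disease. By limma 0 of the 10 genes passed, and 1 of the 15780 genes did (0.00634%). The count over all genes depended on the fit, and was 234 higher and 244 lower with the replicate numbers as a block. At an unadjusted p under 0.05 there were 4, namely Mmp9 (−0.93 ± 0.32), Mmp12 (−1.05 ± 0.35), Mmp13 (−0.60 ± 0.26) and Timp3 (1.17 ± 0.51), with adjusted p between 0.20 and 0.24, while 18.7% of all genes had such a p. The 4 remission arrays all lay below the 6 prenephritic arrays for Mmp13, where the highest remission value was 11.87 and the lowest prenephritic value 11.88, a separation found in this direction for 1.93% and in either direction for 2.32% of all genes. Mmp14 differed by 0.04, with an interval from −0.40 to 0.49, and Timp1 by −0.24, with an interval from −0.83 to 0.35. Differences inside these intervals could not be seen with these arrays.

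The order of the group means differed between genes. For Mmp13, Mmp12 and Mmp9 the remission mean lay between the nephritic mean and the higher prenephritic mean, and neighbouring groups differed past the threshold only for Mmp13, between remission and nephritic arrays. For Mmp14 and Timp1 the nephritic mean was highest and the other 2 groups did not differ beyond their spread. For Timp3 the remission mean, 11.20 ± 0.56, was highest.

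Of the 10 genes, 3 lie in 1 cluster of MMP genes on mouse chromosome 9. In the order along the chromosome given by RefSeq (GRCm38.p6), the cluster runs Mmp13, Mmp12, Mmp1b, Mmp3, Mmp1a, Mmp10, Mmp8, Mmp27, Mmp20 and Mmp7, and 9 of these 10 genes were measured. Mmp13 and Mmp12, next to each other at its end, were the ones that fell. The other 7 measured genes differed between nephritic and prenephritic arrays by −0.14 to 0.11, and none passed in that comparison or between remission and nephritic arrays (lowest adjusted p = 0.23). Of these 7, 5 were dim over all arrays, so a change in them could have gone unseen.

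**Figure D3:**
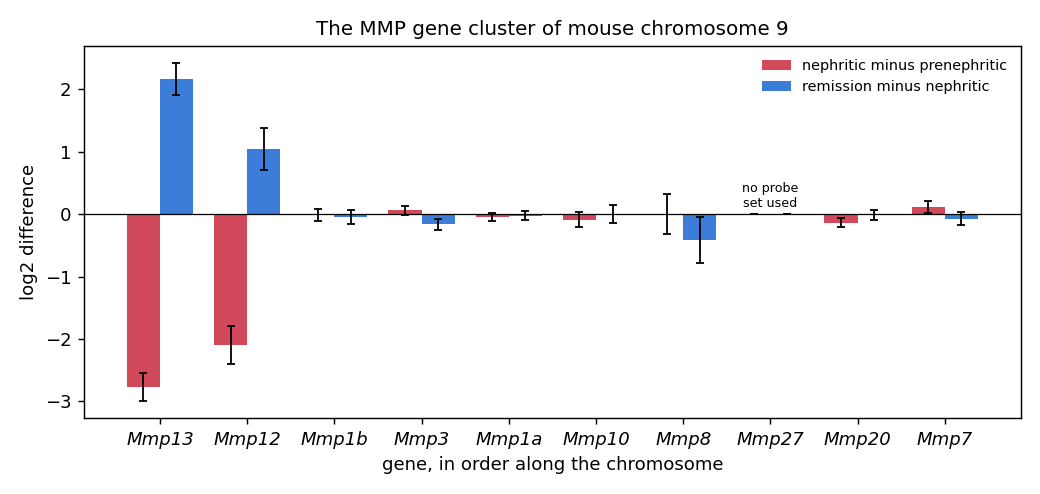
Log2 differences of the MMP genes clustered on mouse chromosome 9, in their order along the chromosome, for nephritic minus prenephritic arrays (red) and remission minus nephritic arrays (blue). Bars start at 0 and error bars are the standard error of the limma fit. Mmp13 and Mmp12 stand out, at −2.77 and −2.09 in nephritis, while Mmp27 was not analysed here.

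MMP promoters are known for sites of AP-1, the transcription factor of Fos and Jun proteins, and the Mmp13 promoter also for a Runx site. The 250 bases before the annotated start were therefore searched in the 7 members that the RefSeq promoter table (GRCm38.p6) holds, with 8 starts since Mmp12 has 2. The motifs were TGANTCA for AP-1, TGTGGT for Runx and an NF-kB pattern that requires a run of T, on both strands. That pattern is not the common NF-kB consensus, so NF-kB sites of other forms could be missed. The table held 32851 such windows, of which 6.75%, 14.05% and 1.41% had the AP-1, Runx and NF-kB letters. The sequences of the 4 genes with the largest changes are shown 5′ to 3′, with AP-1 and Runx matches in capitals. They are chr9:7272264-7272513 for Mmp13, chr9:7347124-7347373 for the second start of Mmp12, chr14:54431348-54431597 for Mmp14 and chrX:20869916-20870165 for Timp1, all on the plus strand.
Mmp13: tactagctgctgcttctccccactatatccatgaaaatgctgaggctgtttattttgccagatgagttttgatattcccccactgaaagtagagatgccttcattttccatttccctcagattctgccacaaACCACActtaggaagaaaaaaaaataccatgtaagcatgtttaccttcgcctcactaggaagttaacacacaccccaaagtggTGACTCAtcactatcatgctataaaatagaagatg
Mmp12: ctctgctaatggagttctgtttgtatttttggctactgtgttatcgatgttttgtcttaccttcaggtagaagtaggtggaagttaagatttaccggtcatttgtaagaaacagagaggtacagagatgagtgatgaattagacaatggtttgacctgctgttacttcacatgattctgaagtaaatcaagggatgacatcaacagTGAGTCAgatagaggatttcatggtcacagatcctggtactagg
Mmp14: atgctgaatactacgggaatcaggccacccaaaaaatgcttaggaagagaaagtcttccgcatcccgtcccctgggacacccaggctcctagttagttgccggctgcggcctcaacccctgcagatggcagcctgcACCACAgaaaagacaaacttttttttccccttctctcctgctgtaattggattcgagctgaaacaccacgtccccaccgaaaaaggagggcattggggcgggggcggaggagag
Timp1: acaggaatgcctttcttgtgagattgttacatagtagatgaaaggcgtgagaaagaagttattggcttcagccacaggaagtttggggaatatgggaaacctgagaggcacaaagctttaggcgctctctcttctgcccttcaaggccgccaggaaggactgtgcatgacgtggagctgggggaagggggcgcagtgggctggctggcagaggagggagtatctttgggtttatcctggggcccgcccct
The 2 members with the largest decreases in nephritis held an AP-1 match close to a start, at position −35 in Mmp13 and −44 at the second start of Mmp12. The first start of Mmp12, which is not shown, held none, and the second was shown because it held the match. None of the 6 windows other than these 2 matching ones held one, and none of the 8 held the NF-kB letters searched. A Runx match lay at −118 in Mmp13 and at −114 in Mmp14, a gene that fell and a gene that rose. Such matches are only letters, since binding was not measured. Mmp2, Mmp9 and Mmp19 had no entry in the table.

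The 10 genes also varied within groups more than most. The within-group SD over all genes had a median of 0.18. It was 0.85 for Timp3, 0.63 for Mmp8, 0.59 for Mmp12, 0.53 for Mmp9, 0.46 for Timp1 and 0.43 for Mmp13, and only that of the dim gene Mmp19 (0.13) lay below the median. Deviations from the group means were set against each other for the 15 pairs of the 6 genes called in some comparison. Mmp12 and Mmp13 deviated together (Pearson's r = 0.63, permutation p = 0.0074, adjusted p = 0.065 over the 15 pairs, and Spearman's rho = 0.74, permutation p = 0.00099, adjusted p = 0.015). So did Mmp14 and Timp1 (r = 0.61, permutation p = 0.0086, adjusted p = 0.065, and rho = 0.61, permutation p = 0.0087, adjusted p = 0.065), which falls short of the threshold. Without the 2 arrays farthest from the median the r were 0.56 and 0.66 over 15 arrays. The lowest adjusted p among the other pairs was 0.14, by rho.

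Timp3 followed the kidney tubule markers. Over the 17 arrays it rose with the mean level of 24 genes of proximal and distal tubule (r = 0.97 and rho = 0.95, permutation p = 1e-05 for both, the smallest that 100000 permutations can give, and adjusted p = 0.0004 for both over 40 relations). Without nephritic replicate 3 and remission replicate 2, the arrays farthest from the median, r was 0.94 over 15 arrays. Within the 7 nephritic and the 6 prenephritic arrays it was 0.99 and 0.98. Nephritic replicate 3 had both the lowest Timp3 (7.97) and the lowest tubule level (7.54), and remission replicate 2 the highest of both (11.75 and 11.15). The tubule level ranged from 9.69 to 11.15 in remission arrays, from 7.54 to 10.39 in nephritic arrays and from 8.70 to 10.51 in prenephritic arrays, and all 24 tubule genes had a higher mean in remission than in nephritis. Their median difference was 1.15, against −0.03 over all genes. Of the 24, 16 had an unadjusted p under 0.05, against 29.4% of all genes. Calb1 and Pvalb passed the adjusted threshold, which is 8.33% of the list, against 13.3% of all genes. With the tubule level as a covariate, the Timp3 difference between nephritic and prenephritic arrays had a much smaller error and passed (0.34 ± 0.09, adjusted p = 0.020), and that between remission and nephritic arrays was −0.14 ± 0.12 (adjusted p = 0.57). Timp3 also rose with 12 endothelial genes (r = 0.76, permutation p = 0.00026, adjusted p = 0.0035, and rho = 0.83, permutation p = 6e-05, adjusted p = 0.0012), with an r of 0.70 without the 2 farthest arrays. Their mean level ranged from 7.14 to 7.81 in remission, from 6.78 to 7.57 in nephritic and from 6.50 to 7.61 in prenephritic arrays. Pecam1 was the 1 of the 12 that passed in nephritis (1.84), a share of 8.33%, against 12.1% of all genes. Between remission and nephritic arrays Pecam1 was lower (−2.05 ± 0.22) and Ehd3 higher (0.98 ± 0.23), a share of 16.7%, against 13.3% of all genes. In that comparison 11 of the 12 had a higher mean in remission, with a median difference of 0.43, against −0.03 over all genes.

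**Figure D4:**
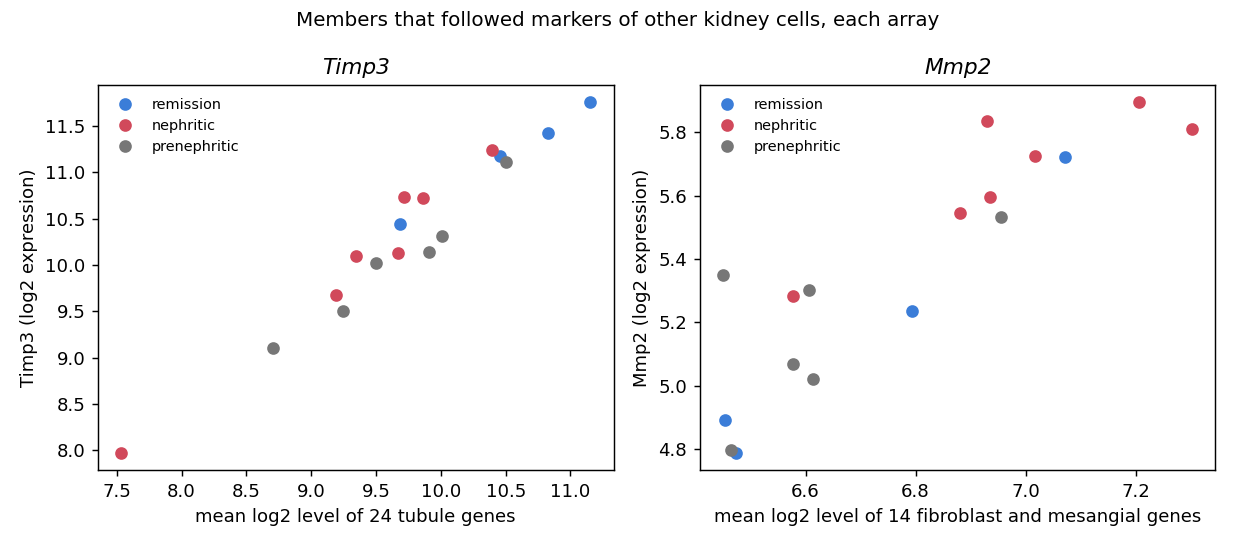
Left, Timp3 against the mean log2 level of 24 tubule genes; right, Mmp2 against the mean log2 level of 14 fibroblast and mesangial genes; each point is 1 array, with remission arrays in blue, nephritic arrays in red and prenephritic arrays in grey. Timp3 rises with the tubule level in all 3 groups (r = 0.97 over 17 arrays) and Mmp2 with the fibroblast level (r = 0.89).

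Mmp2 followed the fibroblast and mesangial markers, a list that includes Col1a1, Pdgfrb and Acta2 (r = 0.89, permutation p = 3e-05, adjusted p = 0.0006, and rho = 0.82, permutation p = 0.00016, adjusted p = 0.0021). Without nephritic replicates 1 and 7, r was 0.87 over 15 arrays, and it was 0.87 within nephritic and 0.63 within prenephritic arrays. Their mean level ranged from 6.45 to 7.07 in remission arrays, from 6.58 to 7.30 in nephritic arrays and from 6.45 to 6.96 in prenephritic arrays. In nephritis 3 of the 14 genes rose (Mgp, Tagln and Acta2) and 1 fell (Itga8), a share of 28.6%, against 12.1% of all genes. In remission Pdgfrb, Thy1 and Mgp were lower, and Itga8 higher, than in nephritis, again 28.6%, against 13.3% of all genes. With that level as a covariate, an alternative added after the data were seen, Mmp2 differed between nephritic and prenephritic arrays by 0.11 ± 0.11 (adjusted p = 0.71), and between remission and nephritic arrays by −0.22 ± 0.12 (adjusted p = 0.26). Between nephritic and prenephritic arrays Mmp13, Mmp12, Mmp9, Mmp14 and Timp1 kept their calls in that fit, at −2.65, −1.62, −1.79, 2.04 and 1.84.

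Of the 40 relations of the 10 genes with tubule, neutrophil, fibroblast and endothelial markers, these 3 passed by both coefficients. One more passed by Pearson's r alone, that of Mmp12 with the fibroblast list (r = −0.72, permutation p = 0.0014, adjusted p = 0.014, but rho = −0.60, permutation p = 0.013, adjusted p = 0.10). Without nephritic replicates 1 and 7, r was −0.56 over 15 arrays, and it was −0.73 within nephritic and −0.65 within prenephritic arrays. The permutations for these 40 relations shuffled all 17 arrays, so their p-values also take in differences between groups. In deviations from the group means, r was −0.51 for Mmp12 and 0.83 for Mmp2 with the fibroblast list. For Timp3 it was 0.98 with the tubule list and 0.70 with the endothelial list. These r of deviations were not tested.

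Of 8 macrophage genes, the efferocytosis receptor gene Mertk (1.22) and the Fc receptor gene Fcgr1 (0.63) rose in nephritis and were lower in remission than in nephritis. Some markers of other leukocytes also differed between nephritic and prenephritic arrays, the comparison in which Mmp13, Mmp12, Mmp9, Mmp14 and Timp1 passed. Of 6 monocyte genes 4 were higher in nephritis, Clec4e (2.58 ± 0.41), Hp (1.88 ± 0.45), Plac8 and Ccr2, and the same 4 were lower in remission than in nephritis. Their mean level ranged from 8.18 to 8.81 in remission arrays, from 9.04 to 9.96 in nephritic arrays and from 7.95 to 9.05 in prenephritic arrays. Of 7 B and plasma cell genes 5 rose and 1 fell, with mean levels from 6.92 to 7.25 in remission, from 7.45 to 8.59 in nephritic and from 6.44 to 7.83 in prenephritic arrays. Of 6 T cell genes 3 rose, with levels from 5.21 to 5.42 in remission, from 5.63 to 6.20 in nephritic and from 5.25 to 5.71 in prenephritic arrays. Of 8 dendritic cell genes 1 rose (Xcr1) and 3 fell, namely Cd209a (−3.73 ± 0.65), Siglech (−2.73 ± 0.25) and Flt3, with levels from 5.86 to 6.90 in remission, from 5.98 to 7.25 in nephritic and from 6.23 to 8.23 in prenephritic arrays. Of 9 neutrophil genes Csf3r rose and 5 were dim (Ltf, Ngp, Elane, Mpo and Cxcr2), with levels from 5.19 to 6.32 in remission, from 5.41 to 6.40 in nephritic and from 5.20 to 6.64 in prenephritic arrays. In nephritis 12.1% of all genes passed, against 25% of the macrophage, 66.7% of the monocyte and 85.7% of the B and plasma cell genes. The share was 50% for T cell and 50% for dendritic cell genes. For neutrophil genes it was 11.1%, near that of all genes. Between remission and nephritic arrays 13.3% of all genes passed, against 25% of the macrophage and 66.7% of the monocyte genes. The share was 71.4% for B and plasma cell genes (1 higher and 4 lower in remission) and 66.7% for T cell genes (4 lower). For dendritic cell genes it was 37.5% (1 higher and 2 lower), and for neutrophil genes 11.1% (Csf3r lower), near that of all genes. The part of these cells in the results was not tested.

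The genes whose profiles lay closest to each called member were named by the root mean square (RMS) difference of the log2 values over the 17 arrays, each gene centred on its mean. For Mmp13, which has an SD of 1.37 over all arrays, they were Siglech, a sialic acid-binding lectin gene also among the dendritic cell markers (RMS difference 0.31), Hs3st1, a heparan sulfate sulfotransferase gene (0.39), and Hs3st3a1, another of that family (0.48). For Mmp12 they were Fndc4 (0.43), the histamine receptor gene Hrh1 (0.48) and the lipoprotein receptor gene Lsr (0.49). For Mmp9 they were the carbonic anhydrase gene Car3 (0.31), the cytokine gene Tslp (0.35) and Rad51b (0.44).

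For Mmp14 they were the potassium channel gene Kcnn4 (0.25), Itgam, which encodes CD11b (0.28), and the acid phosphatase gene Acp5 (0.28). For Timp1 they were the receptor gene Cd300lb (0.33), the Src family kinase gene Fgr (0.35) and Mmp14 itself (0.36). For Mmp2, which has an SD of only 0.37, they were the matrix crosslinking gene Loxl1 (0.18), the oncostatin M receptor gene Osmr (0.19) and Plbd2 (0.20). Each RMS difference is to be read against the member's SD over all arrays. That SD was 0.83 for Mmp9, 1.09 for Mmp12, 1.10 for Mmp14 and 1.07 for Timp1. In these 18 pairings, the nephritic minus prenephritic difference of the other gene had the sign of the member each time, as the choice by likeness makes likely.

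Other MMP genes were mostly dim. Of 17 listed, Timp4 included, 12 were measured and 7 of these were dim over all arrays. Only Timp4 passed between nephritic and prenephritic arrays (−0.35 ± 0.10, adjusted p = 0.030), and it was dim in all groups. That is 8.33% of the 12, against 12.1% of all genes. None of the 12 passed between remission and nephritic arrays.

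ADAM and ADAMTS genes encode metalloproteases related to MMPs, and many ADAMs release cell-surface proteins. Of 15 measured, 6 rose and 1 fell in nephritis (46.7%, against 12.1% of all genes), with a median difference of 0.38 against −0.02 over all genes. Adam8, an ADAM of myeloid cells, rose by 1.24 ± 0.22, and Adam9 by 0.40 ± 0.07. Adam12 rose by 0.42 ± 0.08 and was dim in all groups. Adam19 fell by 1.48 ± 0.25, to 8.35 ± 0.64 in nephritic arrays (n = 7), against 9.83 ± 0.26 in prenephritic arrays (n = 6). The adjusted p of these 4 lay between 0.00092 and 0.0024.

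In remission 1 of the 15 was higher than in nephritis and 5 were lower (40%, against 13.3% of all genes). Adam8 (−1.50 ± 0.25), Adam12 (−0.43 ± 0.09), Adam17, the enzyme that releases tumour necrosis factor (−0.40 ± 0.09), and Adamdec1 (−2.14 ± 0.42) had the smallest p. Adam19 was the gene that was higher, by 0.98 ± 0.28, and is named after its values were seen.

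Of 17 measured activators, other inhibitors and cell-surface partners of MMPs, 3 rose in nephritis and none fell, a share of 17.6% near the 12.1% of all genes. Cd44, which encodes a hyaluronan receptor that docks MMP9 and is cut by MMP14, rose by 0.73 ± 0.13 (adjusted p = 0.0014). Plaur, which encodes the urokinase receptor, rose by 1.03 ± 0.28 and the thrombospondin gene Thbs1 by 0.46 ± 0.12. In remission Cd44 (−0.80 ± 0.15), Plaur (−1.31 ± 0.32) and Lrp1, which encodes a receptor that clears MMPs (−0.56 ± 0.14), were lower than in nephritis, again 17.6%, near the 13.3% of all genes.

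Of 20 matrix genes measured, 1 rose and 2 fell in nephritis, a share of 15% near the 12.1% of all genes. The laminin gene Lamc1 fell by 1.07 ± 0.17 (adjusted p = 0.00067) and the basement membrane collagen gene Col4a2 by 0.60 ± 0.19 (adjusted p = 0.046), while the tenascin gene Tnc rose by 0.65 ± 0.19. Lamc1 was higher in remission than in nephritis by 0.95 ± 0.20 and was the 1 matrix gene called there (5%, against 13.3% of all genes). Mesangial cells, fibroblasts and tubule cells also express such genes, and Col1a1, Col1a2, Col3a1 and Dcn stand in both this list and the fibroblast list.

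Of 16 measured transcription factors known to act on MMP genes, 3 rose and 2 fell in nephritis (31.25%, against 12.1% of all genes). Stat3 rose by 0.64 ± 0.09 (adjusted p = 0.00020), Fosl2, an AP-1 subunit, by 0.58 ± 0.14 (adjusted p = 0.012) and Cebpb by 0.63 ± 0.17 (adjusted p = 0.022). Runx1 fell by 0.64 ± 0.16 (adjusted p = 0.017), as did Ets2, named after its values were seen, by 0.26 (adjusted p = 0.040). Stat3 (−0.79 ± 0.10), Fosl2 (−0.94 ± 0.16) and Cebpb (−0.83 ± 0.19) were lower in remission than in nephritis (18.8%, against 13.3% of all genes). In the comparison of remission with prenephritic arrays no gene of these lists passed by limma. At an unadjusted p under 0.05 there were 2 of 12 other MMP and TIMP genes, 4 of 17 activators and inhibitors, 2 of 15 ADAM and ADAMTS genes, 1 of 20 matrix genes and 2 of 16 transcription factors. Over all genes 18.7% had such a p, so these counts are near or below the share of all genes.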

How the data were processed

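Total RNA of F4/80hi kidney cells was measured on 17 Affymetrix arrays (4 remission, 7 nephritic, 6 prenephritic), grouped by sample title. The deposited table holds log2 values that the authors made with RMA, per the submitters' processing notes, and the values (1.76 to 15.00) fit that scale. RMA sets each probe set relative to its own probes, and it compresses low values. Levels were therefore compared between genes only roughly, to mark genes as dim or high and to pick the highest markers. The sources used here do not name the genome build behind the probe sets.

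Of 16539 probe sets, 64 controls and 695 without a symbol were left out and 15780 with 1 symbol were tested. Differences were fitted over all 17 arrays with limma 3.58.1 in R 4.3.3 (14 residual degrees of freedom), two-sided, adjusted by Benjamini-Hochberg over the 15780 genes. Correlations used 100000 permutations, over all 17 arrays for the marker lists and within groups for pairs of members. No arrays held identical values, and the number of arrays limits the precision.

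The members, gene lists and marker lists were chosen with earlier results of these data known. All 10 members were named, with up to 4 called genes of smallest p per pathway list and comparison, 3 genes of closest profile per called member, and called or highest markers. Some called markers, among them all those of B, plasma and T cells, were given as counts only. Promoters came from RefSeq (GRCm38.p6), with 7 of 10 members matched. Alternatives changed normalization, filter, variance prior, array weights, arrays or genes in the fit, covariates and a fold floor. The fibroblast covariate was added after seeing the data.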

Additional observations from a re-analysis of the deposited data

Results flagged for a closer look

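Mmp14 in prenephritic replicate 6 was 6.29, apart from the other prenephritic arrays, of which the nearest was 7.02 and the highest 7.16. It was the 1 array that stood apart among 30 groups of arrays examined (10 genes in 3 groups), and chance alone marks about 1 in 20 such groups. Without that array Mmp14 was still higher in nephritic than in prenephritic arrays, by 1.97 (limma, adjusted p = 9.3e-06).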

How the results depend on the processing

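The calls of Mmp12, Mmp13, Mmp14 and Timp1 in nephritis, and of Mmp13, Mmp14 and Timp1 in remission against nephritis, held under all 29 alternatives, and 17 of the 30 single-gene results kept direction and side of the threshold throughout. Mmp2 in nephritis lost its call with array medians subtracted (adjusted p = 0.055), with the replicate block (0.45, adjusted p = 0.11) and without nephritic 6 and prenephritic 5 together (0.44, adjusted p = 0.15). Mmp9 lost it only against a 1.5-fold floor. Same-number arrays correlated from −0.26 to 0.80 (median 0.12, 8 of 14 over 0.1), against a median of 0.0055 and 25 of 80 over 0.1 for different numbers. Of the 17 arrays, 3 were closest to their own number. The titles state no pairing and these values do not settle it, so the numbers were not taken as pairs. With the replicate block Timp3 passed between remission and nephritic arrays (1.42, adjusted p = 0.039). Among members, those higher in remission than in nephritis numbered 2 without dim genes, with array weights or with the replicate block, and 1 to 2 leaving out an array. The added gene was Mmp12 without dim genes or with array weights, and Timp3 with the replicate block. Those lower numbered 4 with array weights and 2 to 4 leaving out an array. Over all genes, calls in nephritis numbered 78 higher and 27 lower against a 1.5-fold floor, 407 and 272 with the fibroblast covariate, and 537 lower with medians subtracted, 1525 with the tubule covariate and 477 without the pair (569 to 1009 leaving out an array). In remission against nephritis they numbered 1239 higher and 2385 lower with array weights, 1064 higher with the replicate block, 4 and 34 against the floor, 178 and 863 with the fibroblast covariate and 826 lower with the tubule covariate (182 to 981 higher and 839 to 1940 lower leaving out an array). In remission against prenephritic arrays they numbered 2 higher and 3 lower with repeated quantile normalization, 3 lower with medians or a trended prior, 69 and 289 with array weights, 234 and 244 with the replicate block, and 0 lower with only those groups, the floor, either covariate or without the pair (0 to 28 higher and 0 to 171 lower leaving out an array). Timp3 between remission and nephritic arrays, 1.12 as reported, turned to −0.14 with the tubule covariate. The other changes of sign were of differences near 0. Mmp8 in nephritis was −0.078 with array weights, −0.092 and −0.24 with the tubule and fibroblast covariates and −0.047 without the pair (−0.21 to 0.21 leaving out an array). Timp3 was −0.16 without the pair and −0.011 with the fibroblast covariate (−0.14 to 0.40), Mmp19 −0.0018 with that covariate, and Timp2 ranged from −0.16 to 0.011. Between remission and prenephritic arrays Mmp2 was 0.024 with quantile normalization, 0.049 with the replicate block and 0.0062 with the tubule covariate (−0.21 to 0.10), Mmp14 −0.051 with the block (−0.092 to 0.22) and Timp2 −0.013 to 0.20. The cause was not tested. Dim genes such as Mmp19 and Timp1 in remission limit what these arrays can show.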

Other observations

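Prenephritic replicate 6 was the lowest of the 6 prenephritic arrays for 5 of the 10 genes (Mmp8, Mmp12, Mmp13, Mmp14 and Timp1) and the highest for 3 (Mmp2, Mmp9 and Timp3). Mmp8 against the mean of 9 neutrophil genes had r = 0.56 over 17 arrays (permutation p = 0.019, adjusted p = 0.097 over 40 relations) and rho = 0.52 (permutation p = 0.033, adjusted p = 0.16). Without prenephritic replicate 2 and remission replicate 3, r was 0.31 over 15 arrays, and it was −0.14 within nephritic and 0.89 within prenephritic arrays.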
